A study of Mus musculus with 6 samples.

Results

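The 10 glutathione transferase genes Gsta3, Gsta4, Gstm1, Gstm2, Gstm4, Gstm5, Gstp1, Gstt1, Gstt3 and Gsto1 were examined in mouse muscle cells exposed to the kinase inhibitor sorafenib. They were taken by symbol from a table of 55356 genes, and each symbol matched 1 row. The cells were myotubes derived from C2C12, a mouse myoblast line that fuses in culture into multinucleate muscle fibre-like cells. Sorafenib was given at 20 µM for 24 h (3 libraries), and cells kept in 0.1% DMSO for 24 h served as the comparison (3 libraries). All cultures were of this 1 line, for which the labels give no genetic change, and per the series' design text each library of a group stems from a separate experiment. Values are the authors' normalized counts of poly(A)-selected RNA, in which 1 read is worth about 0.913 to 1.19.

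Glutathione transferases join the tripeptide glutathione to reactive, electrophilic compounds, among them drugs, pollutants and the aldehydes that form when membrane lipids are oxidized. The conjugates are then pumped out of the cell. The cytosolic enzymes work as dimers and fall into classes by sequence, here alpha, mu, pi, theta and omega. Many of their genes are known targets of the transcription factor NRF2, which acts at antioxidant response elements when electrophiles accumulate.

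Sorafenib-treated myotubes held more glutathione transferase messenger RNA, and its makeup differed. The sum of the 10 genes was 64817 ± 700.5 normalized counts in sorafenib libraries and 24314.5 ± 713 in DMSO libraries (SD, n = 3 each), 2.67 ± 0.08-fold. Gsta4, an alpha-class enzyme with high activity toward the lipid aldehyde hydroxynonenal, made up 38.4% ± 0.29 of that sum in sorafenib and 2.72% ± 0.10 in DMSO (SD, n = 3 each). Its counts were 37.6-fold higher in sorafenib. Gstp1, the leading member in DMSO, made up 32.9% ± 0.73 of the sum in sorafenib and 56.2% ± 0.81 in DMSO. Without Gsta4, the sum of the other 9 genes was 39901 ± 377 in sorafenib and 23652 ± 670 in DMSO, 1.69 ± 0.05-fold.

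Of the 10 genes, 9 reached the minimum of 10 normalized counts in 3 libraries and were tested. By limma on log2(normalized count + 1), with Benjamini-Hochberg adjustment over all genes and 0.05 as the threshold, 5 rose, 2 fell and 2 were not called. With libraries scaled to equal totals, 5 rose and 1 fell. Of the 16645 genes tested in all, 76.6% were called, 38.8% higher and 37.8% lower. The share of tested members called, 77.8%, was close to that background, so the number of calls says nothing particular about the family. The median log2 change was 0.64 over the 9 tested genes and 0.02 over all genes. Equal library totals shift that second median by 0.16, so the sign of a change smaller than this rests on the scaling. For 7 members the libraries of the groups did not overlap, 5 with sorafenib above and 2 with sorafenib below. Over all genes tested this held for 79.5%, with sorafenib above for 40.1% and below for 39.4%. Gsta3 reached the minimum only in sorafenib libraries, so its place among these rises was fixed by the filter. The median of 0.64 over the 9 tested genes includes Gsta3 and so is not free of that filter. Of the other 8 tested members, 3 had called rises of at least 2-fold, Gsta4, Gstm1 and Gsto1, as had 12.5% of all genes tested.

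**Figure D1:**
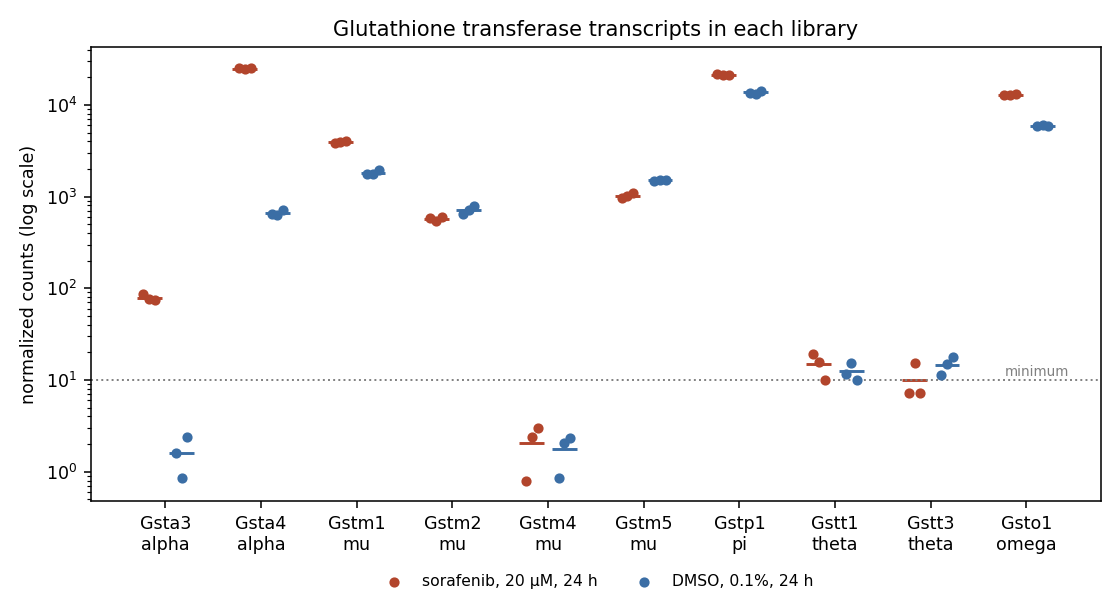
Normalized counts (log axis) of the 10 glutathione transferase genes in each library. Points are the 3 sorafenib libraries (left of each gene) and the 3 DMSO libraries (right), short bars are means, and the dotted line is the minimum of 10. Gsta3 and Gsta4 are separated most widely, and Gstm4, Gstt1 and Gstt3 overlap.

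The sequences of near-identical genes limit how reads can be assigned, so they are shown for the pairs concerned. Stretches of 31 bases of each gene's principal transcript were looked for in the transcripts of all other genes of GENCODE M21. For Gsta4, Gstm5 and Gsto1, 0 such stretches occurred elsewhere. For Gsta3 it was 1.05%, for Gstt1 0.70%, for Gstm4 3.40%, for Gstm2 19.5%, for Gstt3 27.0% and for Gstm1 34.3%. For Gstp1 it was 67.5%, all of it shared with its neighbour Gstp2, and the coding sequences of this pair are 98.1% identical over 630 bases. Their first 60 coding bases, from GENCODE M21 on GRCm38, differ at 6 positions, in capitals.
Gstp1 coding start: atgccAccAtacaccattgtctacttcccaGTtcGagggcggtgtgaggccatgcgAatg
Gstp2 coding start: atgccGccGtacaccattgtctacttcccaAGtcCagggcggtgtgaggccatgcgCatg
The split of reads between Gstp1 and Gstp2 is therefore uncertain. Gstm1 and Gstm2, which moved in opposite directions, are less alike, at 85.9% identity over 654 coding bases. Their first 60 coding bases differ at 12 positions, in capitals.
Gstm1 coding start: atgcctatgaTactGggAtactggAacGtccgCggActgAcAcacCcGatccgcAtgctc
Gstm2 coding start: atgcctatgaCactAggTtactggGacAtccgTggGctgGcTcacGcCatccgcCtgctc

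RefSeq promoter windows on GRCm38.p6, from 250 bases before to 50 after the start, were found for 9 members, Gsta4 being the exception, and 3 of these have 2 windows. Each was searched on both strands for the antioxidant response element TGACNNNGC, the AP-1 site TGANTCA and the C/EBP-ATF response element TGATGNAA. The first was found for 2 members, Gsta3 and Gstm5, and is present in 12.4% of all 32851 windows. The AP-1 letters were found for 2 members, Gstp1 and Gstm5, and in 7.81% of all windows. The C/EBP-ATF letters were found for 0 members and in 3.97% of all windows. No matches overlapped. The 3 windows with a match are shown 5′ to 3′ on the strand of the gene, without the 50 bases after the start, with matches in capitals. They are chr1:21240335-21240584 for Gsta3 on the plus strand, chr3:107895604-107895853 for Gstm5 on the plus strand and chr19:4037913-4038162 for Gstp1 on the minus strand.
Gsta3 promoter: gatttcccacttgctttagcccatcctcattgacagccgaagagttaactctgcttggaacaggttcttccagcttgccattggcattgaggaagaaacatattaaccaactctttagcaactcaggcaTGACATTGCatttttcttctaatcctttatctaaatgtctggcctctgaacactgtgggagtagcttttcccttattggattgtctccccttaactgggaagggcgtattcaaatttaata
Gstm5 promoter: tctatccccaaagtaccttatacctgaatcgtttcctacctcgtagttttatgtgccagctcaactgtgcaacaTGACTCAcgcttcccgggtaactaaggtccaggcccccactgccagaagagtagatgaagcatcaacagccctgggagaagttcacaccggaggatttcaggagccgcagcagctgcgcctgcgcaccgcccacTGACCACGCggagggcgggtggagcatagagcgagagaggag
Gstp1 promoter: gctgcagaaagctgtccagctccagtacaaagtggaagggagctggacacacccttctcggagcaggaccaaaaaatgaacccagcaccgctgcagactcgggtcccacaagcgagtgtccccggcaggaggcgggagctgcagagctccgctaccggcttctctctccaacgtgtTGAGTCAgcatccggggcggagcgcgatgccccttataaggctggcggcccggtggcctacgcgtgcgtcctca
Of the members with a match, Gstp1, with AP-1 letters, rose and Gstm5, with both kinds, fell. Gsta3, with the antioxidant response element, rose too, but the filter on low values fixed its direction. Whether a match bears on direction was not tested. A match is a description of these letters, not a bound site.

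The alpha class showed the largest rises. Gsta4 (ENSMUSG00000032348.7, chromosome 9, 78182774 to 78209349 on GRCm38, plus strand) had 24996, 24486 and 25265 normalized counts in the sorafenib libraries, against 649, 627 and 711 in the DMSO libraries. All sorafenib values lay far above all DMSO values, and each group spread little. The gene rose by 5.23 ± 0.05 on the log2 scale (SE, limma with adjusted p = 6.71e-11), rank 50 among the rises of 16645 genes. The authors' deposited table gives 5.23 with a standard error of 0.06.

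Gsta3 (chromosome 1, 21240589 to 21265661), known in mice for conjugating the epoxide of aflatoxin, had 86.6, 76.6 and 74.2 normalized counts in sorafenib, against 1.58, 0.85 and 2.41 in DMSO. The DMSO values correspond to about 5 reads in all and the sorafenib values to about 259. These reads are rounded estimates, since whole reads were not recovered. Their ratio, corrected for library scaling, was 43.6, against 49.0 for the ratio of the group means. Its exact 95% interval of 18.4 to 135 treats the rounded reads as counts and covers counting error only. Gsta3 passed the filter only through its sorafenib libraries, so its call had to be a rise. Neither this interval nor the adjusted p below tests that direction. Gsta3 rose by 4.98 ± 0.31 on the log2 scale (SE, limma with adjusted p = 6.50e-07), a value that was 2.94 with a pseudocount of 10 and 5.64 with a pseudocount of 0.1.

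Within the alpha class the log2 ratio of Gsta4 to Gsta3 was 8.28 ± 0.12 in sorafenib and 8.03 ± 0.35 in DMSO (SD, n = 3 each). The difference of 0.25 ± 0.21 (SE) had an exact permutation p = 0.40 (two-sided), and it was −0.40 with a pseudocount of 0.1. With a pseudocount of 10 it was 2.27, and without DMSO replicate 2 it was 0.44, and in both cases the groups did not overlap (exact permutation p = 0.10, two-sided). Sign and size of this difference thus rest on how the few Gsta3 reads in DMSO are treated, and no direction is given.

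The pi-class gene Gstp1 (chromosome 19, 4035407 to 4037985, minus strand), which encodes the main transferase of many tissues outside the liver, had 21978, 21087 and 20986 normalized counts in sorafenib, against 13597, 13159.6 and 14265 in DMSO. The groups did not overlap, with every sorafenib library above every DMSO library. Gstp1 rose by 0.64 ± 0.04 on the log2 scale (SE, limma with adjusted p = 5.13e-07), or 1.56-fold. Gstp2, next to it, had a log2 change of 0.68 ± 0.09, close to that of Gstp1, but with 690 ± 60.9 normalized counts in sorafenib and 429 ± 16.6 in DMSO (SD, n = 3 each). The deposited column names carry the output name of the quantifier salmon, which divides shared reads between transcripts by likelihood, although no label names the tool.

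Gsto1 (chromosome 19, 47854970 to 47864790, plus strand), an omega-class enzyme that reduces dehydroascorbate and removes glutathione from proteins, had 12791, 12794 and 13139 normalized counts in sorafenib, against 5875, 5998 and 5863 in DMSO. Replicates within each group lay close together and the groups were far apart. Gsto1 rose by 1.13 ± 0.03 on the log2 scale (SE, limma with adjusted p = 5.63e-09), or 2.18-fold.

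The mu class, a cluster on chromosome 3, was divided. Gstm1 (108012255 to 108017973, minus strand), an abundant liver enzyme in mice, had 3836, 3961 and 4003 normalized counts in sorafenib, against 1743, 1761 and 1945 in DMSO. It rose by 1.12 ± 0.05 on the log2 scale (SE, limma adjusted p = 9.60e-08), 2.17-fold. Gstm2-ps1, the pseudogene with which Gstm1 shares the most 31-base stretches (26.9%), had 5.49, 23.1 and 7.36 normalized counts in sorafenib and 1.95, 2.37 and 1.11 in DMSO, far below Gstm1.

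Gstm2 (107981702 to 107986453, minus strand), whose human counterpart is abundant in skeletal muscle, had 583, 549 and 595 normalized counts in sorafenib, against 642, 721 and 787 in DMSO. The groups were separate but close. It fell by 0.31 ± 0.09 on the log2 scale (SE, limma adjusted p = 0.00989). With equal library totals the change was −0.16 and limma's adjusted p = 0.13, which does not pass.

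Gstm5 (107895821 to 107898686, plus strand), at one end of the cluster, had 976, 1023 and 1085 normalized counts in sorafenib, against 1486, 1498 and 1524 in DMSO. It fell by 0.55 ± 0.06 on the log2 scale (SE, limma adjusted p = 1.82e-05), and by 0.39 with equal library totals. Gstm4 (108040408 to 108044894) had 0.80, 2.42 and 3.00 normalized counts in sorafenib, against 0.85, 2.08 and 2.33 in DMSO. These are values of 1 to 3 reads, the groups overlapped, and Gstm4 was not tested. The authors' deposited table gives Gstm4 an adjusted p of 0.94.

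Ratios between mu members were taken within each library, so that the scaling of libraries bears little on them. The log2 ratio of Gstm1 to Gstm5 was 1.94 ± 0.05 in sorafenib and 0.27 ± 0.07 in DMSO (SD, n = 3 each), a difference of 1.66 ± 0.05 (SE). The log2 ratio of Gstm1 to Gstm2 was 2.77 ± 0.07 in sorafenib and 1.34 ± 0.08 in DMSO, a difference of 1.43 ± 0.06. For Gstm2 to Gstm5 the ratio was −0.84 ± 0.08 in sorafenib and −1.07 ± 0.13 in DMSO, a difference of 0.24 ± 0.09. Each of these 3 ratios had sorafenib values wholly above DMSO values, with an exact permutation p = 0.10 (two-sided), the smallest that 3 against 3 libraries allow, and 0.20 after adjustment over the 8 within-class pairs. The 3 ratios with Gstm4 rest on its few reads. They differed by 0.99 ± 0.41 for Gstm1 over Gstm4, whose groups did not overlap, by −0.44 ± 0.40 for Gstm2 over Gstm4 and by 0.67 ± 0.40 for Gstm4 over Gstm5 (SE).

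**Figure D2:**
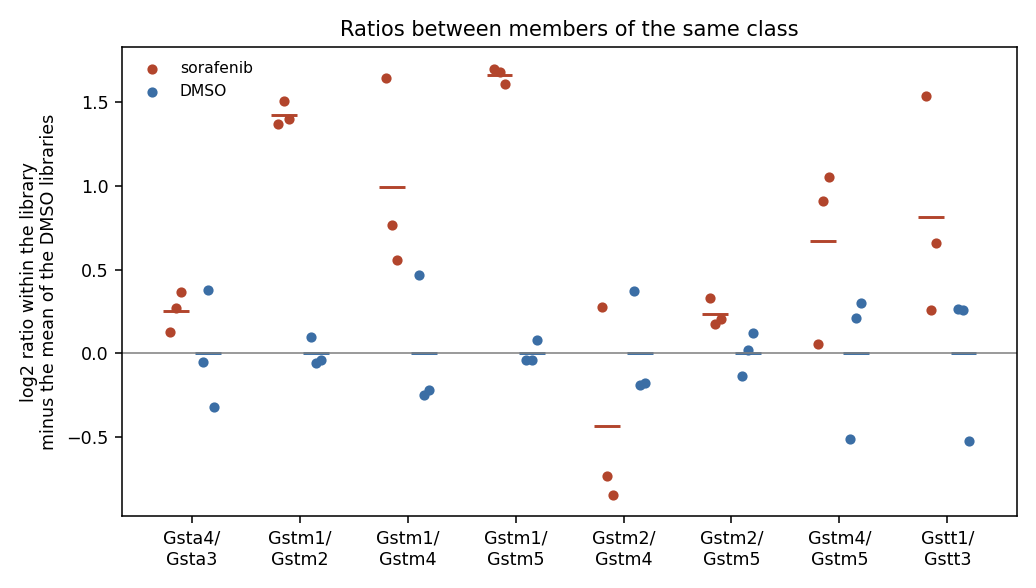
Log2 ratios between members of the same class within each library, minus the mean of the DMSO libraries for that pair. Points are the 3 sorafenib libraries (left of each pair) and the 3 DMSO libraries (right), and short bars are means. The ratio of Gstm1 to Gstm5 is 1.66 higher and that of Gstm1 to Gstm2 1.43 higher in sorafenib, while the ratio of Gsta4 to Gsta3 overlaps between groups.

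The theta genes, which encode enzymes acting on small halogenated compounds, were barely detected. Gstt1 (chromosome 10, 75783813 to 75798584, minus strand) had 19.2, 15.7 and 10.03 normalized counts in sorafenib, against 11.7, 15.4 and 10.07 in DMSO. Gstt3 (75774115 to 75781414, minus strand) had 7.16, 15.3 and 7.18 in sorafenib, against 11.4, 15.0 and 17.6 in DMSO. The groups overlapped for both. Their log2 changes were 0.23 ± 0.33 and −0.59 ± 0.37 (SE), with limma adjusted p = 0.55 for Gstt1 and 0.18 for Gstt3. Without sorafenib replicate 2 the Gstt3 change was −0.92 and passed, at limma's adjusted p = 0.0473. The ratio of Gstt1 to Gstt3 differed by 0.82 ± 0.46 on the log2 scale, with an exact permutation p = 0.30 (two-sided). With all libraries no change was called for either gene, and what size could be detected at these counts was not tested.

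The makeup of the family total followed from these changes. The difference between the group means of the total was 40502 normalized counts, of which Gsta4 made up 59.9%, Gstp1 19.0%, Gsto1 17.3% and Gstm1 5.23%, while Gstm5 and Gstm2 lowered it by 1.17% and 0.35%. Gstp1, Gsto1 and Gstm1 thus had more counts but a smaller share. The share of Gsto1 was 19.9% ± 0.29 in sorafenib and 24.3% ± 0.94 in DMSO, and that of Gstm1 was 6.07% ± 0.17 and 7.47% ± 0.25 in these groups (SD, n = 3 each). Gstm5 made up 1.59% ± 0.08 in sorafenib and 6.18% ± 0.12 in DMSO, and Gstm2 0.89% ± 0.03 in sorafenib and 2.94% ± 0.24 in DMSO. Gsta3, Gstm4, Gstt1 and Gstt3 each made up at most 0.133% in every library. By class, alpha made up 38.6% ± 0.28 in sorafenib and 2.73% ± 0.10 in DMSO, and mu 8.55% ± 0.25 in sorafenib and 16.6% ± 0.43 in DMSO.

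For 9 of the 10 members the shares of the sorafenib and DMSO libraries did not overlap, Gstm4 being the exception. Each of the 9 had an exact permutation p = 0.10 (two-sided), the smallest possible, and 0.11 after adjustment over the 10 members. Shares of 1 total are tied to each other, so the rise of Gsta4 alone lowers the others. Relative to all RNA measured, the 10 genes made up 0.0921% ± 0.00081 of all normalized counts in sorafenib and 0.0310% ± 0.00073 in DMSO (SD, n = 3 each). In RNA from a whole culture, more cells that express a gene and more RNA per cell cannot be told apart.

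**Figure D3:**
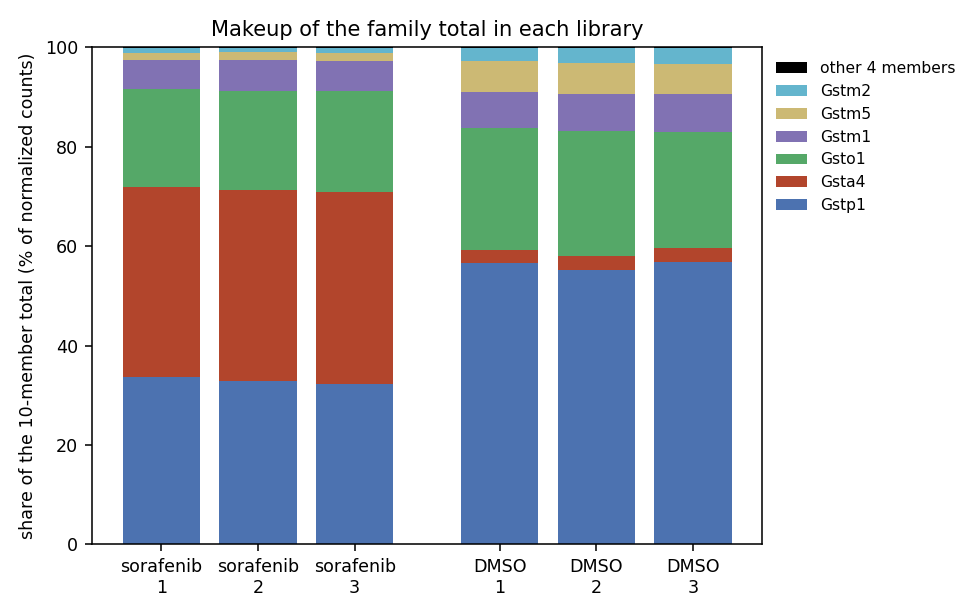
Share of each gene in the 10-gene sum of normalized counts, in percent, with 1 bar per library. Gsta4 averages 38.4% in the 3 sorafenib libraries and 2.72% in the 3 DMSO libraries, and Gstp1 32.9% and 56.2%, while the other 4 members (black) are too small to see.

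Levels can be compared between genes only per transcript length, given here as normalized counts per kilobase of the principal transcript. In sorafenib Gstp1, at 26005 ± 665, and Gsta4, at 25502 ± 405, overlapped in their ranges and led the family (SD, n = 3). Gsto1 followed at 10921 ± 169, Gstm1 at 3052 ± 67.3, Gstm5 at 1088 ± 57.5 and Gstm2 at 541 ± 22.8 per kilobase. In DMSO Gstp1 led at 16655 ± 678, followed by Gsto1 at 5002 ± 63.1, Gstm5 at 1590 ± 20.3 and Gstm1 at 1409 ± 86.5. Gsta4, at 678 ± 44.5, and Gstm2, at 674 ± 68.7, overlapped there. Gsta4 was below 4 members in DMSO with either length used here, but its place at the top in sorafenib depended on the length. Per kilobase of all annotated exons, a choice added after the data were seen, Gsta4 led in sorafenib at 19681 ± 312, apart from Gstp1 at 13792 ± 352. On that scale Gstm1 at 1233 ± 75.7 and Gstm5 at 1176 ± 15.0 overlapped in DMSO, so their order there is not settled. Gsta3 had 54.3 ± 4.54 per kilobase in sorafenib and 1.11 ± 0.53 in DMSO, where its range overlapped that of Gstm4.

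Other transferase genes were taken from a list of 22 symbols, of which 21 were matched. Of the 15 tested, 6 rose and 7 fell, with a median log2 change of −0.30, where 38.8% of all genes tested rose and 37.8% fell. With quantile normalization or equal library totals 6 rose and 6 fell, since Gstt2 no longer passed. The alpha genes Gsta1, Gsta2 and Gsta5, between 78230656 and 78355788 beside Gsta4 on chromosome 9, rose too. Gsta1 had 839 ± 75.6 normalized counts in sorafenib and 62.7 ± 25.1 in DMSO, Gsta2 476 ± 118 in sorafenib and 10.5 ± 4.45 in DMSO, and Gsta5 178 ± 3.28 in sorafenib and 6.00 ± 4.66 in DMSO (SD, n = 3 each). Their log2 changes were 3.78 ± 0.24, 5.42 ± 0.29 and 4.89 ± 0.42 (SE). With a pseudocount of 10 those of Gsta2 and Gsta5 were 4.56 and 3.60. Between 61.3% and 92.2% of their 31-base stretches occur in other genes, so the value of each alone is uncertain. Gsta2 and Gsta5 reached the minimum in all 3 sorafenib libraries but in 1 DMSO library each. They thus passed the filter through sorafenib, which favoured a rise.

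Gsto2, the omega gene that follows Gsto1 at 47865534 to 47886324 on the same strand, changed in the opposite direction. It had 245 ± 25.4 normalized counts in sorafenib and 444 ± 33.5 in DMSO (SD, n = 3 each), a log2 change of −0.86 ± 0.11 (SE, limma adjusted p = 7.00e-05). The coding sequences of Gsto1 and Gsto2 are 66.7% identical. In the mu cluster Gstm7 had 7.04 ± 2.68 in sorafenib and 28.7 ± 1.45 in DMSO, a log2 change of −1.93 ± 0.31, and of −1.19 with a pseudocount of 10. Its sorafenib values were 5.48, 10.1 and 5.51, so Gstm7 passed the minimum of 10 mainly through DMSO libraries, which favoured a fall. Gstm3, Gstm6 and the pi gene Gstp3 had at most 4.74 normalized counts in any library and were not tested.

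The remaining genes of that list moved in both directions. Gstz1, the zeta-class enzyme of tyrosine breakdown, changed by −0.30 ± 0.04 and the theta gene Gstt2 by −0.55 ± 0.19 on the log2 scale. The authors' deposited table gives Gstt2 a Wald test adjusted p of 0.066, which does not pass 0.05. Among the microsomal enzymes, which sit in membranes and are unrelated in sequence, Mgst1 rose by 1.49 ± 0.14, while Mgst2 fell by 1.66 ± 0.14 and Mgst3 fell by 0.71 ± 0.06. Ltc4s, leukotriene C4 synthase, had 8.0, 3.47 and 4.55 normalized counts in sorafenib, against 39.3, 45.7 and 40.3 in DMSO. It reached the minimum only in DMSO libraries, so its call could only be a fall, and its log2 change was −2.81 ± 0.32, or −1.76 with a pseudocount of 10. Gstcd, which carries a transferase-like domain, rose by 0.24 ± 0.05. Ptges (−0.50 ± 0.45) and Alox5ap (−0.25 ± 0.13) were not called. Gstk1, the mitochondrial kappa enzyme, and Gstt4 were at 0 or about 1 read in every library, and Hpgds was listed at 0 in all 6.

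**Figure D4:**
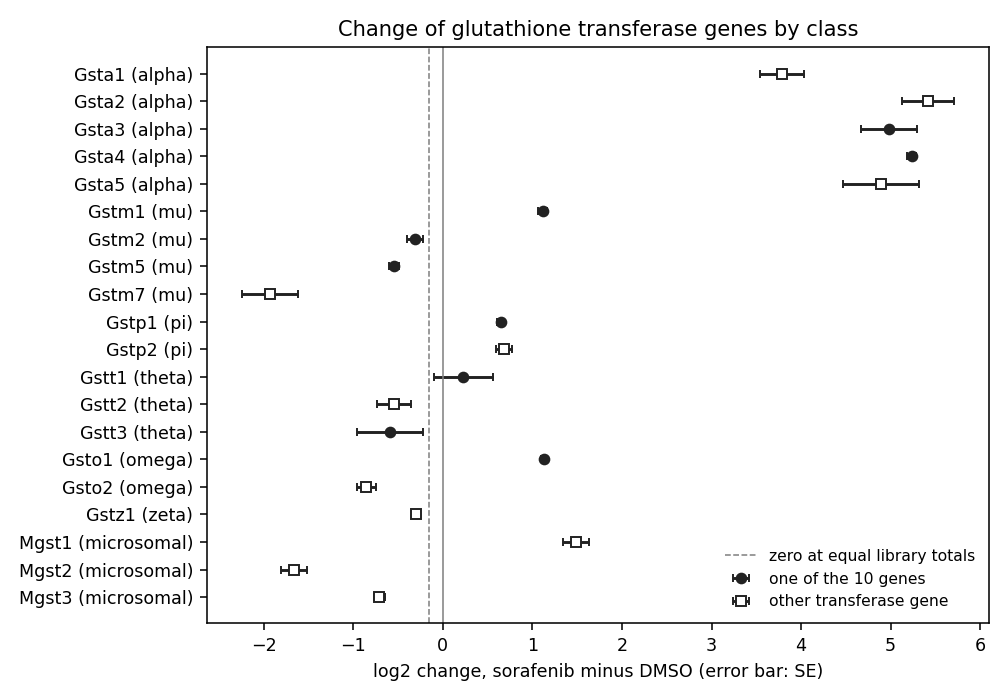
Log2 change (sorafenib minus DMSO, error bars SE of the limma fit, 3 libraries per group) of the tested glutathione transferase genes, by class. Filled circles are genes of the set of 10 and open squares other transferases. The 5 alpha genes lie between 3.78 and 5.42, whereas the mu, omega and microsomal genes lie on both sides of 0. Gsta3 reached the minimum only in sorafenib libraries, and Gsta2 and Gsta5 mainly in those, so the filter favoured their rises. Gstm7 reached it mainly in DMSO libraries, so the filter favoured its fall. Gsta1, Gsta2 and Gsta5 share most of their sequence stretches with other genes, so their rises are not separate evidence. The dashed line marks where 0 falls with equal library totals.

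Genes that make and supply glutathione were mostly higher. Of 13 tested, 10 rose and 3 fell, with a median log2 change of 0.96. Among all genes tested, 38.8% rose and 37.8% fell. Slc3a2, a subunit of the cystine importer, rose by 3.79 ± 0.06 and Slc1a4, a neutral amino acid carrier, by 1.31 ± 0.03. Gss, glutathione synthetase, fell by 1.16 ± 0.04, and Mat2a, which makes S-adenosylmethionine, fell by 0.39 ± 0.03. Slc7a11, the partner of Slc3a2 in cystine import, rose by 5.87 ± 0.19, Gclm, the modifier subunit of the first enzyme of glutathione synthesis, by 1.44 ± 0.06, and its catalytic subunit Gclc by 0.52 ± 0.04, all 3 chosen after their values were seen.

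Genes of glutathione breakdown, of 9 tested, rose in 3 cases and fell in 4 (5 with quantile normalization, 3 with equal totals). The background for this list and the next is 38.8% higher and 37.8% lower over all genes tested. Chac1, which cleaves glutathione in the cytosol, rose by 2.13 ± 0.06, and its relative Chac2 fell by 0.79 ± 0.11. Anpep, a surface aminopeptidase, rose by 1.10 ± 0.20 and Dpep1, a surface dipeptidase, fell by 1.52 ± 0.14. Genes of glutathione reduction, peroxidases and glutaredoxins were evenly divided, with 6 of 14 higher and 6 lower, and 7 higher and 4 lower with equal totals. Their median log2 change was −0.0047, and 0.15 with equal totals. Esd, which frees glutathione from S-formylglutathione, rose by 1.68 ± 0.04 and the peroxiredoxin Prdx6 by 0.46 ± 0.03. Glo1, the first glyoxalase, fell by 0.66 ± 0.04 and the peroxidase Gpx8 fell by 0.56 ± 0.04. Gsr, glutathione reductase, rose by 0.37 ± 0.07 and was chosen after its value was seen.

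Of 7 tested exporters of conjugates and drugs, 4 rose and 1 fell (5 and 1 with quantile normalization or equal totals), beside 38.8% and 37.8% of all genes tested. Abcc4 had 6810 ± 181 normalized counts in sorafenib and 562 ± 46.3 in DMSO, 12.1-fold, and Abcb1b 2682 ± 325 in sorafenib and 420 ± 15.9 in DMSO, 6.39-fold (SD, n = 3 each). Abcg2 fell by 0.70 ± 0.04. Abcc1, a main carrier of glutathione conjugates, rose by 1.02 ± 0.07 and was chosen after its value was seen.

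Of 14 tested regulators of transferase genes, 8 rose and 4 fell (10 and 3 with equal totals). Over all genes tested 38.8% rose and 37.8% fell, the background for this count and for the NRF2 targets below. Ddit3 (CHOP) rose 19.6-fold and Atf4 2.82-fold, both transcription factors of the integrated stress response. Fos, a part of AP-1, fell 5.78-fold and Ahr, the aryl hydrocarbon receptor, 1.97-fold. Nfe2l2, which encodes NRF2, rose by 0.36 ± 0.03, and its inhibitor Keap1 changed by 0.07 ± 0.04, which did not pass but did with equal totals (0.22). Nfe2l2 and Keap1 were chosen after their values were seen. Of 25 NRF2 targets outside glutathione metabolism, 16 rose and 8 fell, with a median log2 change of 0.35. Ephx1, microsomal epoxide hydrolase, rose by 2.45 ± 0.03 and Srxn1, sulfiredoxin, by 2.67 ± 0.05, while Idh1 fell by 1.12 ± 0.04 and Aldh3a1, an aldehyde dehydrogenase, fell by 3.56 ± 0.13. Hmox1, heme oxygenase, rose by 2.67 ± 0.05 and Nqo1, a quinone reductase, by 0.33 ± 0.10, both chosen after their values were seen.

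The 3 genes whose profile over the 6 libraries was most like that of Gsta4 were Fam171b, Cdsn and Cabp1, out of 11508 with a mean of at least 100. Likeness was the root mean square difference between log2 profiles, each set relative to its DMSO mean, and was 0.10, 0.16 and 0.19. Fam171b had 9548, 8468 and 8126 normalized counts in sorafenib, against 226, 229.6 and 219.5 in DMSO. Its log2 change was 5.27 ± 0.07 (SE), against 5.23 for Gsta4, and the groups of all 3 genes were far apart. Both followed from the choice, since the genes were picked for likeness to Gsta4 in these same libraries.

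Estimated depth was 76.4 to 77.3 M reads per sorafenib library and 65.5 to 80.2 M per DMSO library. Markers of the cultures moved with the groups. All 10 myotube markers were expressed and lower in sorafenib, with summed levels of 531147 to 648945 normalized counts in sorafenib and 2.05e+06 to 2.21e+06 in DMSO. Of 8 markers of unfused myoblasts 3 were higher and 5 lower, with a median log2 change of −0.78. By at least 2-fold, 1 was higher, Myf5, and 3 were lower. Their sums were 34019.5 to 35037 in sorafenib and 28336 to 31173 in DMSO. The higher sum rests on Myf5, which rose 18.9-fold, with 17590 ± 132 in sorafenib and 933 ± 45.2 in DMSO (SD, n = 3 each). Of 4 tested fibroblast markers 4 were lower (3 with equal totals), led in level by Col3a1. The part of these cell states in the transferase changes was not tested. Hepatocyte markers, relevant since the liver is rich in these enzymes, were at or near 0, with sums of 3.66 to 4.61 in sorafenib and 1.19 to 5.59 in DMSO over 8 genes, the most abundant being Apoa1. Of 6 macrophage and leukocyte markers 3 were tested, 2 higher and 1 lower, with sums of 985 to 1144 in sorafenib and 371 to 408 in DMSO, most of it Cd14. The adipocyte list had 1 tested gene, Pparg, which was 2.66-fold higher.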

How the data were processed

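Poly(A)-selected RNA was sequenced with stranded libraries, per the labels' protocols. Each deposited signal value is a normalized count per gene and library, per the file headers. The authors' tool for this was DESeq2, per the submitters' processing notes, which also name bcl2fastq and GRCm38.p6. They name no quantifier, but per the file headers the columns carry salmon's output name, and salmon estimates how shared reads divide. The mean of the 6 columns equalled the deposited base mean for all 55356 genes, within a relative tolerance of 1e-06. Beside these stand deposited log2 fold changes with their standard errors, a Wald score and p-values, raw and adjusted, all from the authors.

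Between 59.0% and 69.8% of values under 20 were whole multiples of 1 read within 0.02, so whole reads were not recovered. No count model was fitted, except for the interval of Gsta3, which treats rounded read estimates as counts. The 16645 genes that reached 10 normalized counts in 3 or more libraries were fitted with limma 3.58.1 in R 4.3.3 on log2(normalized count + 1), with trend and robust empirical Bayes and group as the only term, which understates changes of low genes. The code of this step was run on simulated data in which few genes changed. Here 76.6% of the genes were called, so that run does not cover the conditions of these data. Shares and ratios were compared with exact permutation tests. Only 3.34% of shared gene identifiers have the table's position on GRCm38, so positions and transcript lengths are from GENCODE M21. Where a symbol has more than 1 row, the row with the higher mean was used.

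The 10 genes and the gene lists were chosen with earlier results of these data known. Named were all 10 genes, all tested genes of the list of other transferases, the 2 called genes with the smallest p in each direction of each other list, the most abundant gene of each marker list, and the 3 genes most like Gsta4. No p was computed over lists. An item of the exporter list is not reported here. Alternatives were quantile normalization, equal totals, no filter or a minimum of 50, pseudocounts of 0.1 and 10, a replicate block, another set of genes in the total, and leaving out each library. Python 3.11.15 with pandas 2.3.3, scipy 1.17.1 and matplotlib 3.10.9 was also used.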

Additional observations from a re-analysis of the deposited data

How the results depend on the processing

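Of 115 recomputed log2 changes of the 9 tested genes, 113 kept their direction and their side of the threshold, 0 reversed, 1 lost its call (Gstm2 with equal totals) and 1 gained one (Gstt3 without sorafenib replicate 2). The log2 change of Gsta4 ranged from 5.20 to 5.39 over its 13 alternatives. With equal totals 1 of the 10 genes fell in place of 2, and leaving out single libraries gave 5 higher and 2 to 3 lower. Over all genes, leaving out a library gave 6136 to 6345 higher and 6009 to 6172 lower. The fold of the family total was 2.42 with all 24 genes named Gst in it, 2.97 with equal totals (chosen after seeing the data), and 2.64 to 2.71 without single libraries. All 100 recomputed shares kept their direction, also per kilobase of the principal transcript or of all exons, the last added after the data were seen. Of the 72 recomputed ratios 1 reversed, that of Gsta4 to Gsta3, which was −0.40 with a pseudocount of 0.1, 2.27 with a pseudocount of 10, and 0.0927 to 0.442 without single libraries. Of 712 recomputed changes of the other named genes 0 reversed and 7 lost their call, in Gstt2 and Nqo1, while Keap1 gained one with equal totals. Gstt2 did so without sorafenib replicate 1 or 2 or DMSO replicate 3 (limma adjusted p = 0.0752 to 0.0987). Nqo1 did so without sorafenib replicate 1 (limma adjusted p = 0.0570) or DMSO replicate 3 (0.0652). The loss of the call for Gstm2 with equal totals goes with a shift of the median of all genes by 0.16. For the other changes the cause was not tested.

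Same-numbered libraries of the groups had correlations of deviations from the group means of 0.08, 0.04 and 0.02, all positive but small. DMSO replicate 3 correlated best with another number, sorafenib replicate 2 (0.025 against 0.022), while the other 5 libraries correlated best with their own. The library numbers in the column names also alternate between the groups in replicate order. Whether the libraries are paired is thus not settled, and the main fit has no block. With the replicate block 6404 genes were higher and 6231 lower, and 5 of the 10 genes were higher and 2 lower. The exact sign-flip test of the shares with the replicate block gave p = 0.25 for Gsta4, the smallest that 3 pairs allow. Depth limits Gsta3 in DMSO and Gstm4, Gstt1 and Gstt3 in all libraries.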
